A study of Homo sapiens with 24 samples.

Results

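The 8 genes of the urea cycle and of ammonia handling described here were CPS1, ASS1, ASL, ARG2, OAT, GLUL, SLC25A13 and SLC25A15. They were selected on earlier results of these data, in which their differences between control and knockdown cells were known, so every difference from control is given as a description: no p is printed for it, and counts of calls against control carry no weight as evidence. The platform annotation names 17 probes for these 8 genes, out of 20046 genes named on the array. Of the 17 probes, 15 lay above the detection floor on at least 6 arrays, and each of the 8 genes had at least 1 such probe, as did 12468 genes in all. The urea cycle turns ammonia, which is toxic, into urea, and it runs in full in the liver. CPS1 joins ammonia with bicarbonate in mitochondria, OTC adds ornithine to give citrulline, ASS1 and ASL turn citrulline and aspartate into arginine and fumarate, and an arginase releases urea and returns ornithine. Cells outside the liver often hold only some of these enzymes and use them to make arginine, polyamines, proline or pyrimidines, or fix ammonia in glutamine through GLUL.

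The cells were SKBR3, an established human breast cancer line in which ERBB2, which encodes the receptor HER2, is amplified. They were grown in DMEM with GlutaMAX-1, a stabilised source of glutamine, and serum. The 4 groups were SKBR3 control cells and cells with a knockdown (kd) of PMCA2, a plasma membrane calcium pump encoded by ATP2B2, of NHERF1, a scaffold protein, or of HER2. Cells were infected in 12-well plates with shRNA lentiviral particles for 48 h, and the source name of the control names no hairpin. Each group was read on 6 Illumina arrays, 3 on each of 2 chips, and since separate cultures are not named in the labels, p-values cover the array-to-array spread alone, which may be technical. Each group had chip positions of its own, so position and group cannot be told apart. The labels do not say how many hairpins were used per target.

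Across genes, 2 arrays of the same group correlated with a median r of 0.996, against 0.978 for arrays from unlike knockdowns and 0.937 for a control array and a knockdown array. Differences between groups had a median standard error (SE) of 0.0775 in log2, and the number of arrays limits the precision. ERBB2 stood at 51.2%, 31.9% and 53.6% of its control intensity in the PMCA2, NHERF1 and HER2 knockdowns, so it was no lower under its own hairpin than under the others. NHERF1 stood at 9.97% of control in its own knockdown, 55.2% in the PMCA2 and 63.7% in the HER2 knockdown. None of the 3 ATP2B2 probes lay above the floor on a control or PMCA2 knockdown array, so the PMCA2 label could not be checked. Of 23 luminal epithelial markers tested, 16, 17 and 15 fell in the PMCA2, NHERF1 and HER2 knockdowns and 5, 6 and 6 rose. Their summed intensity was 66926 to 70573 in control and 38114 to 39548, 29412 to 30065 and 36567 to 38203 in the knockdowns. CDH1 was above the floor on no array, and SPDEF, TFAP2B, SCGB2A2 and AZGP1 on no knockdown array. Of 25 trophoblast markers tested, 21, 13 and 14 rose and 2, 7 and 7 fell, and their sums were 8584.9 to 8930.6 in control and 17347 to 18160, 13471 to 14858 and 10515 to 11020 in the knockdowns. Of 20 hepatocyte markers, 5 were bright enough to test, of which 3 fell in each knockdown, FGG among them, and 1, 0 and 1 rose, and 14 in control and 16 in each knockdown were above the floor on no array. APOA1, APOB, TTR and TF were among the markers below the floor on all 24 arrays. Fibroblast, leukocyte and endothelial lists had 7, 5 and 4 members bright enough to test, and their sums were 14158 to 14879, 2064.8 to 2267.8 and 1033.1 to 1075.6 in control. The same sums were 5761.8 to 6349.8, 2581.7 to 2705.8 and 948.96 to 992.88 in the PMCA2 knockdown, 6710.9 to 7053.2, 1905.5 to 1961.3 and 924.12 to 956.5 in the NHERF1 knockdown, and 4815.6 to 5365.7, 1516.4 to 1620.7 and 887.43 to 916.03 in the HER2 knockdown. By count, 5, 5 and 3 of the fibroblast markers rose and 1, 1 and 2 fell, 3, 1 and 1 of the leukocyte markers rose and 0, 1 and 2 fell, and 2, 3 and 1 of the endothelial markers rose and 1, 1 and 2 fell. The fibroblast sum and count point in opposite directions, as S100A4, the brightest of the list, fell by 1.65, 1.68 and 2.05 on the log2 scale. Beside these marker counts, 33.3%, 35.0% and 34.8% of all genes tested rose and 32.5%, 30.3% and 31.2% fell in the PMCA2, NHERF1 and HER2 knockdowns. The part of these marker differences in the results was not tested.

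Promoter windows of CPS1 and ASS1 are shown because CPS1 had by far the largest difference of the 8 genes and because a window of each holds the same motif. CPS1 has 3 windows and ASS1 has 2, and 1 of each holds the motif. A CPS1 and an ASS1 window without it are not printed. Windows of 300 bases, from 250 before to 50 after an annotated start, came from RefSeq with build GRCh38.p14, and all 8 genes matched, with 12 windows. Printed on the plus strand, 5′ to 3′, with the E-box CACGTG in capitals where it occurs, they read:
CPS1 chr2:210477435-210477734: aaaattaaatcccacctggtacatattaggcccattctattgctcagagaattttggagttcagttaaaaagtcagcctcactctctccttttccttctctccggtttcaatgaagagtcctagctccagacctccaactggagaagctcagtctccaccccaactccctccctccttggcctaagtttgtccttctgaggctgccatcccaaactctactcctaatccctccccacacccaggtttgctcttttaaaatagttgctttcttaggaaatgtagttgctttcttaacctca
CPS1 chr2:210519468-210519767: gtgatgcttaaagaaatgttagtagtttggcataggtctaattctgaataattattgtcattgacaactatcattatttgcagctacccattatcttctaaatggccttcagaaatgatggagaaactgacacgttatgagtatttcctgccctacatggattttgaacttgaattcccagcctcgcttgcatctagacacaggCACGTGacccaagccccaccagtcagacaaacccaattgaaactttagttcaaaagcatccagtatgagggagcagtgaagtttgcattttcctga
ASS1 chr9:130444711-130445010: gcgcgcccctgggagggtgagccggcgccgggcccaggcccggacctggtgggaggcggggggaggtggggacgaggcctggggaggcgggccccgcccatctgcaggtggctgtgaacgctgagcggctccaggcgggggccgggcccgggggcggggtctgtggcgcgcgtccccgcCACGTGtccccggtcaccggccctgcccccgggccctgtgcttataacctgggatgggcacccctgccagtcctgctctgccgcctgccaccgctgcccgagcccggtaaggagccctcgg
The first CPS1 window printed holds none of the motifs searched. The E-box, a hexamer bound by MYC and related factors, begins at -46 from the start in the second CPS1 window printed and at -71 in the ASS1 window. On either strand, CACGTG occurred in 3 of the 12 windows (CPS1, ASS1 and SLC25A13) and in 7.26% of 35116 promoter windows of the same length. The forkhead motif TGTTTAC occurred in 0 of the 12 and in 3.42% of all windows, and TGTTTGC in 1, that of GLUL, and in 3.89%. The cyclic AMP response element TGACGTCA occurred in 1, that of ARG2, and in 1.85% of all windows. The C/EBP motif TTGCNCAAT (0.592% of all windows) and the ATF4 motif TGATGCAA (0.866%) occurred in none of the 12. The matches lay in windows of different genes, so no 2 motifs overlapped. These matches describe letters in the windows alone, and which of the CPS1 starts SKBR3 cells use was not tested.

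**Figure D1:**
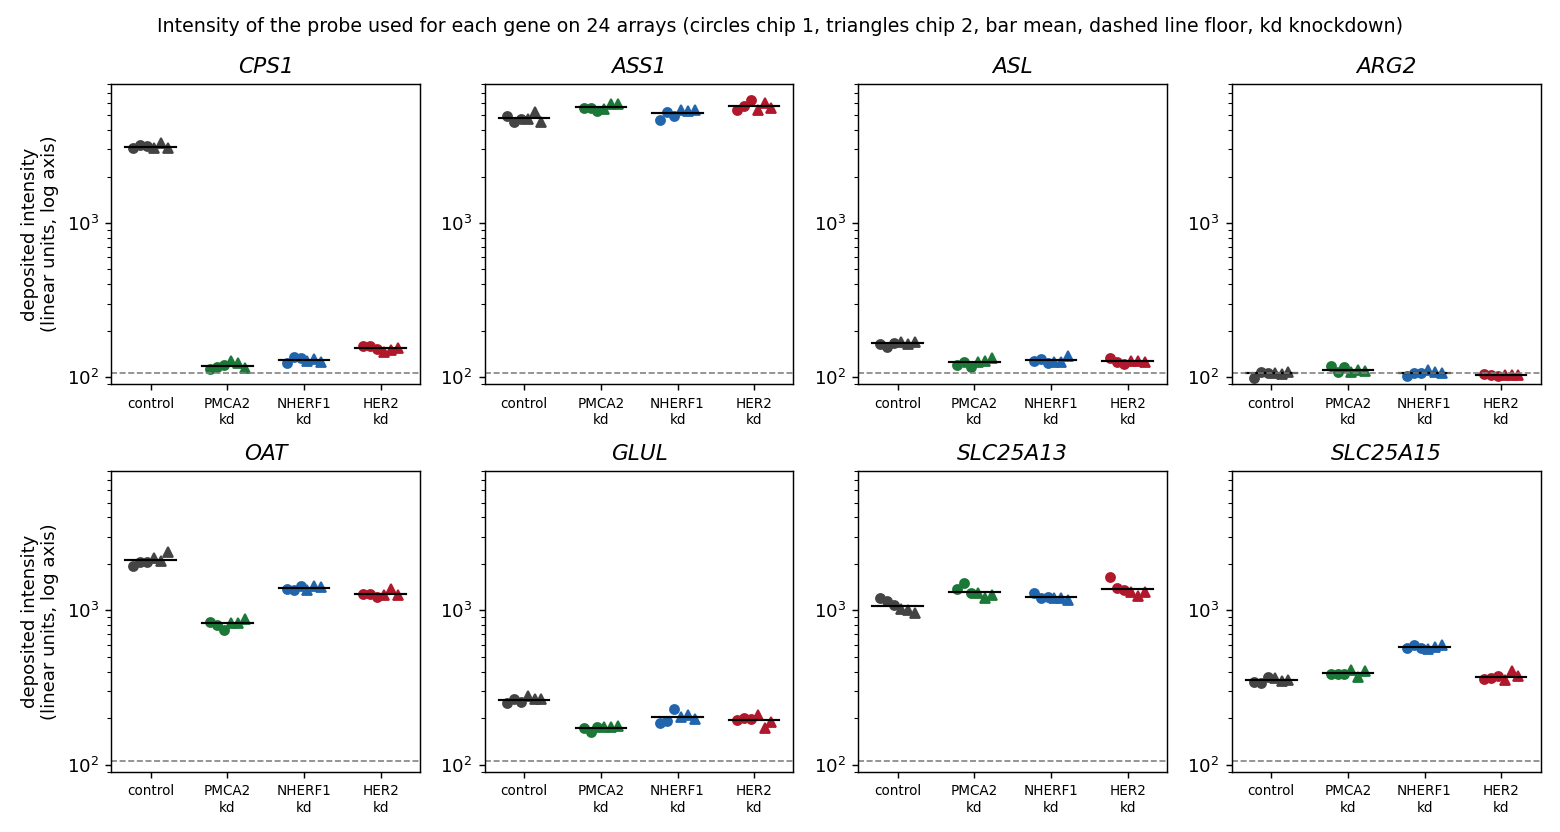
Deposited intensity (linear units on a log axis) of the probe used for each of the 8 genes on 24 arrays, by group, with circles for chip 1, triangles for chip 2, a bar for the mean of 6 arrays and a dashed line at the floor of 105.98. CPS1 lies at 3042.3 or above on all control arrays and at 160.01 or below on all knockdown arrays, ARG2 lies close to the floor in each group, and the other genes differ by far less than CPS1.

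CPS1, the mitochondrial enzyme that admits ammonia to the cycle, was far lower in all 3 knockdowns. Its single probe (gene at chr2:210477685-210679107, GRCh38.p14) read 3042.3 at the lowest, 3090.1 at the median and 3312.3 at the highest of 6 control arrays. It read 112.88, 118.39 and 126.84 in the PMCA2, 123.73, 129.47 and 135.28 in the NHERF1, and 145.44, 153.23 and 160.01 in the HER2 knockdown. No knockdown array came near a control array, and all 18 knockdown arrays stayed above the floor of 105.98, the 95th percentile of probes for olfactory receptor genes, which served as silent probes. After background correction CPS1 was 82.1-fold lower than control in the PMCA2 knockdown (log2 -6.36, SE 0.08), 63.6-fold in the NHERF1 (log2 -5.99) and 42.3-fold in the HER2 knockdown (log2 -5.40). The deposited intensities themselves differ 26.3-, 24.1- and 20.3-fold, because they still hold the array's background, so the size of the fold rests on the correction while the order of the groups does not. From the lowest difference upward, CPS1 ranked 6, 6 and 14 among 12468 genes. Both chips gave like values, with log2 -6.45 and -6.27 for the PMCA2, -5.96 and -6.03 for the NHERF1 and -5.33 and -5.47 for the HER2 knockdown. In these bulk samples fewer cells with the transcript and less transcript per cell cannot be told apart.

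The knockdowns were then set against each other, a comparison in which the members were also known beforehand, so it is no independent evidence. CPS1 was lower in the PMCA2 than in the HER2 knockdown (log2 -0.96, 95% interval -1.12 to -0.80, limma adjusted p = 7.6e-11) and lower with NHERF1 than with HER2 knocked down (log2 -0.59, interval -0.75 to -0.43, limma adjusted p = 5.83e-07). Neither pair of groups overlapped. The PMCA2 and NHERF1 knockdowns also differed (log2 -0.37, interval -0.53 to -0.21, limma adjusted p = 0.000299), but their arrays overlapped and the difference did not pass on chip 2 alone (log2 -0.24, limma adjusted p = 0.0946). The order from high to low was thus control, HER2, NHERF1 and PMCA2 knockdown, with the last 2 neighbours the least apart. In deposited intensity these gaps are 1.29-, 1.19- and 1.09-fold, at levels close to the floor.

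ASS1, which joins citrulline and aspartate, was bright in all groups and stood slightly above control in the PMCA2 and HER2 knockdowns. Its probe (gene at chr9:130444707-130501274) read 4528.7, 4725 and 5257.2 at the lowest, median and highest control array. It read 5306.5, 5563.5 and 5884.5 in the PMCA2, 4677.5, 5280.9 and 5432.1 in the NHERF1 and 5370.8, 5640.6 and 6272.1 in the HER2 knockdown. The PMCA2 and HER2 arrays lay above all control arrays, whereas the NHERF1 arrays overlapped them. The differences were log2 0.23, 0.11 and 0.26 (SE 0.05), and a second bright probe gave 0.19, 0.07 and 0.28. A dim further probe, at 113.57 to 131.52 in control, gave larger differences of 0.77, 1.04 and 0.78 and put the NHERF1 knockdown highest. ASS1 has many processed pseudogenes, so which transcripts each probe reads is uncertain. Between knockdowns ASS1 was lower with NHERF1 than with HER2 knocked down (log2 -0.15, interval -0.26 to -0.04, limma adjusted p = 0.0211), a call lost without NHERF1 replicate 1 (limma adjusted p = 0.0653), without HER2 replicate 3 (limma adjusted p = 0.0595) and on each chip alone, and of opposite sign on the dim probe (log2 0.26, limma adjusted p = 0.0126). The PMCA2 knockdown did not pass against HER2 (log2 -0.03, interval -0.13 to 0.08, limma adjusted p = 0.722) or NHERF1 (log2 0.12, interval 0.02 to 0.23, limma adjusted p = 0.053). That last comparison passed in 5 of 24 repeats that left out 1 array, those without PMCA2 replicate 3, NHERF1 replicates 4 and 6, HER2 replicate 3 and control replicate 5, with limma adjusted p from 0.0387 to 0.146 over the 24. It also passed with chip as a block (limma adjusted p = 0.0487), without background correction, with an offset of 50, with cyclic loess and with 1 probe per gene (limma adjusted p from 0.0184), and on the dim probe it had the opposite sign (log2 -0.27, limma adjusted p = 0.0101).

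ASL, which splits argininosuccinate into arginine and fumarate, was lower in all 3 knockdowns. Its probe (gene at chr7:66075819-66093576) read 157.42, 166.08 and 170.36 at the lowest, median and highest control array. It read 116.42, 126.49 and 133.94 in the PMCA2, 124.29, 126.99 and 136.5 in the NHERF1 and 122.06, 127.1 and 132.58 in the HER2 knockdown. No knockdown array reached the lowest control array. The differences were log2 -0.96, -0.84 and -0.89 (SE 0.08), against 1.32-, 1.29- and 1.30-fold in deposited intensity, and a dimmer probe gave -0.69, -0.62 and -0.60. The remaining probe lay below the floor on all arrays. No pair of knockdowns passed, with log2 -0.08 (interval -0.24 to 0.09, limma adjusted p = 0.483) for PMCA2 minus HER2, 0.04 (-0.12 to 0.21, limma adjusted p = 0.711) for NHERF1 minus HER2 and -0.12 (-0.29 to 0.05, limma adjusted p = 0.236) for PMCA2 minus NHERF1.

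ARG2, the mitochondrial arginase, was barely above background. Its probe (gene at chr14:67619920-67651708) was above the floor on 4 control, 6 PMCA2, 5 NHERF1 and 0 HER2 knockdown arrays. It read 99.631, 107.17 and 108.23 in control, 108.38, 111.19 and 117.61 in the PMCA2, 101.45, 106.84 and 111.23 in the NHERF1, and 101.35, 103.49 and 105.81 in the HER2 knockdown. The PMCA2 arrays alone lay above all control arrays (log2 0.28, SE 0.08), and the NHERF1 difference from control was 0.03. The PMCA2 difference from control was 0.41 on chip 1 alone and 0.15 on chip 2 alone, where it was not called. Where a probe was above the floor on no array of a group, only a bound is given, the bright mean against, per array, the higher of the lowest signal among measured probes and the probe's own. With the PMCA2 knockdown ARG2 was at least 1.22-fold higher than with HER2 (limma adjusted p = 0.000122) and 1.18-fold higher than with NHERF1 (log2 0.24, limma adjusted p = 0.0102), the latter not on chip 2 alone (log2 0.08, limma adjusted p = 0.484). NHERF1 against HER2 gave at least 1.03-fold (limma adjusted p = 0.125), which passed without NHERF1 replicate 1 (limma adjusted p = 0.0416) and on chip 2 alone (log2 0.23, limma adjusted p = 0.0361). ARG1, the liver arginase, was above the floor on no array.

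The carriers that link mitochondria to the cytosolic steps differed from each other. SLC25A15, which exchanges ornithine for citrulline across the inner mitochondrial membrane, was highest in the NHERF1 knockdown. Its probe (gene at chr13:40789611-40812460) read 338.49, 351.17 and 371.97 at the lowest, median and highest control array and 564.38, 577.49 and 594.13 in the NHERF1 knockdown. It read 370.1, 389.38 and 412.9 in the PMCA2 and 353.92, 370.14 and 407.55 in the HER2 knockdown. The NHERF1 arrays stood apart from the 18 others, which overlapped. The difference from control was log2 0.88 with NHERF1, 0.20 with PMCA2 and 0.10 with HER2 knocked down (SE 0.05). A dimmer probe gave 0.28, -0.33 and -0.41 in the same order, so for the PMCA2 and HER2 knockdowns the direction against control depends on the probe. Between knockdowns both probes gave the same sign. The NHERF1 knockdown was above the HER2 knockdown by log2 0.78 (interval 0.68 to 0.88, limma adjusted p = 3.28e-13) on the first probe and 0.69 (limma adjusted p = 9.51e-10) on the other. PMCA2 minus NHERF1 was -0.68 (interval -0.78 to -0.58, limma adjusted p = 3.84e-12) and -0.61 (limma adjusted p = 6.3e-09). PMCA2 and HER2 did not pass (log2 0.10, limma adjusted p = 0.0984), but passed without PMCA2 replicate 5 (limma adjusted p = 0.0498), without HER2 replicate 5 (limma adjusted p = 0.0218) and with cyclic loess normalization (limma adjusted p = 0.0259).

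SLC25A13, or citrin, exports aspartate from mitochondria for the ASS1 step and serves the malate-aspartate shuttle. Its probe (gene at chr7:96120220-96322098) read 967.83, 1057.1 and 1201.1 in control, 1198.8, 1294.6 and 1493.9 in the PMCA2, 1162.2, 1206.3 and 1290.5 in the NHERF1 and 1247, 1335.1 and 1655.2 in the HER2 knockdown. Control was lowest by the median, but only the HER2 arrays cleared all control arrays. The differences from control were log2 0.32, 0.20 and 0.39 (SE 0.07). SLC25A13 was lower with NHERF1 than with HER2 knocked down (log2 -0.19, interval -0.33 to -0.05, limma adjusted p = 0.0277), which was lost without HER2 replicate 1 (limma adjusted p = 0.0971) or NHERF1 replicate 6 (limma adjusted p = 0.0575) and on either chip alone. PMCA2 did not pass against HER2 (log2 -0.06, interval -0.20 to 0.08, limma adjusted p = 0.499) or NHERF1 (log2 0.13, interval -0.02 to 0.27, limma adjusted p = 0.139).

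OAT, the mitochondrial aminotransferase that links ornithine to proline and glutamate, was lower in all knockdowns and lowest with PMCA2 knocked down. Its probe (gene at chr10:124397303-124418923) read 1932.8, 2079.3 and 2388.2 at the lowest, median and highest control array and 750.16, 828.88 and 881.5 in the PMCA2 knockdown. It read 1349.7, 1393.8 and 1444.1 in the NHERF1 and 1214.3, 1271.8 and 1376 in the HER2 knockdown. The control arrays were highest and the PMCA2 arrays lowest, and the NHERF1 and HER2 arrays overlapped between them. OAT was 2.75-, 1.55- and 1.70-fold lower than control (log2 -1.46, -0.63 and -0.77, SE 0.05), and the other probe gave log2 -1.35, -0.59 and -0.69. The PMCA2 knockdown was below the HER2 knockdown (log2 -0.69, interval -0.80 to -0.59, limma adjusted p = 1.27e-11) and below the NHERF1 knockdown (log2 -0.83, interval -0.93 to -0.72, limma adjusted p = 3.5e-13), on the other probe by -0.66 and -0.76. NHERF1 minus HER2 was 0.14 (interval 0.03 to 0.24, limma adjusted p = 0.0364). It was lost in 8 of 24 repeats that left out 1 array (NHERF1 replicates 3, 5 and 6 and HER2 replicates 1, 2, 3, 4 and 6, limma adjusted p up to 0.0769), with cyclic loess (limma adjusted p = 0.0522), on either chip alone and on the other probe (log2 0.10, limma adjusted p = 0.261).

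GLUL, or glutamine synthetase, which fixes ammonia on glutamate outside the urea cycle, was also lower in all knockdowns on its brightest probe. That probe (gene at chr1:182378098-182391790) read 252.7, 266.41 and 279.83 in control, 163.48, 175.38 and 177.58 in the PMCA2, 185.77, 199.96 and 229 in the NHERF1 and 173.24, 195.32 and 209.85 in the HER2 knockdown. No knockdown array reached a control array. The differences were log2 -0.99, -0.60 and -0.71 (SE 0.08). Of the other 3 probes, 1 lay below the floor on all arrays and 2 were near it, with log2 -0.12, 0.25 and 0.09 on the brighter and -0.07, 0.28 and 0.04 on the dimmer, so they do not share the direction for the NHERF1 and HER2 knockdowns. GLUL was lower with PMCA2 than with NHERF1 knocked down (log2 -0.39, interval -0.54 to -0.23, limma adjusted p = 0.000107), and the 2 dim probes gave -0.38 and -0.35. GLUL was lower with PMCA2 than with HER2 (log2 -0.28, interval -0.44 to -0.12, limma adjusted p = 0.00321), though with overlapping arrays. That call was lost on chip 2 alone (log2 -0.19, limma adjusted p = 0.174). The 2 dim probes gave -0.22 and -0.12 there, neither called (limma adjusted p = 0.119 and 0.425, both chips). NHERF1 minus HER2 did not pass (log2 0.11, interval -0.05 to 0.26, limma adjusted p = 0.274).

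**Figure D2:**
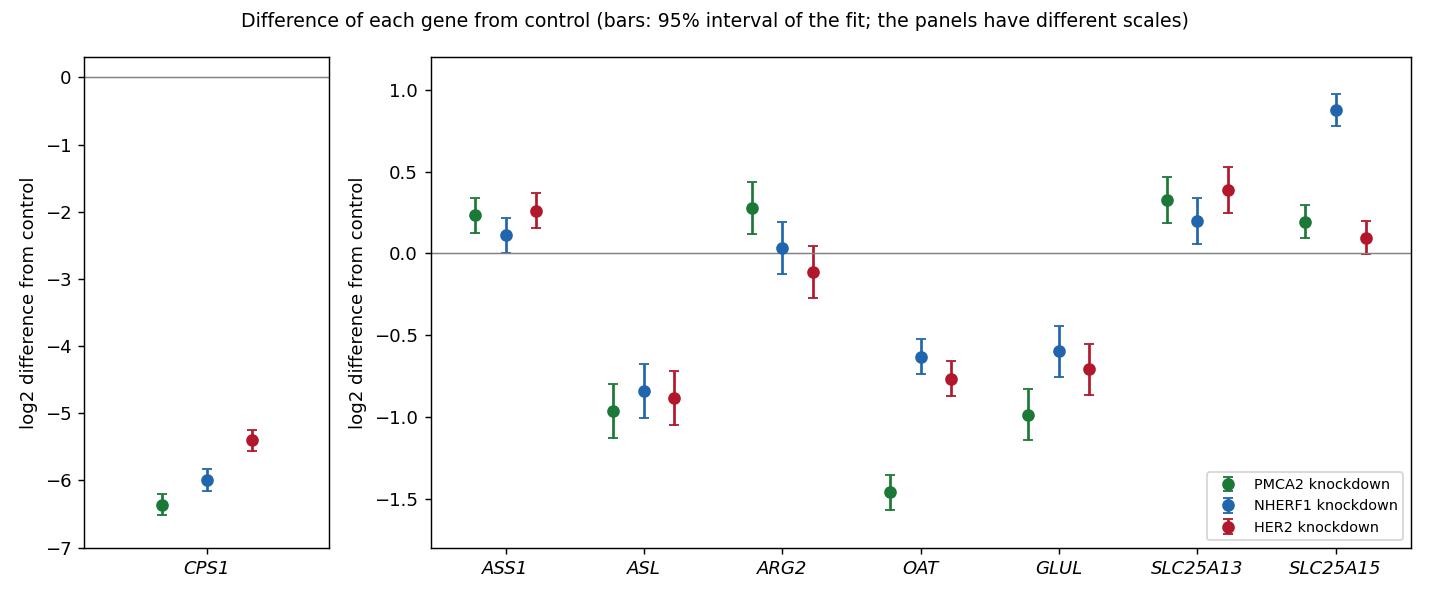
Log2 difference of each gene from control, by knockdown, with the 95% interval of the fit as bars, on separate scales for CPS1 and the other 7 genes. CPS1 lies between -6.36 and -5.40, ASL, OAT and GLUL lie below 0 in all knockdowns, and SLC25A15 is highest in the NHERF1 knockdown at 0.88.

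Counted over the 8 genes at a limma adjusted p under 0.05, 4 were higher and 4 lower than control in the PMCA2 knockdown, beside 33.3% higher and 32.5% lower of all 12468 genes. In the NHERF1 knockdown 2 were higher and 4 lower (35.0% and 30.3% of all genes), and in the HER2 knockdown 2 were higher and 4 lower (34.8% and 31.2%). Nothing is read from these counts, because the genes were chosen with these differences known. CPS1, ASL, OAT and GLUL were the 4 lower genes each time. The arrays of 6, 5 and 6 of the 8 genes did not overlap with control. The share of all genes without such overlap was not counted, so this too is a description alone. The median log2 difference of the 8 genes was -0.38, -0.28 and -0.41, against 0.00, 0.02 and 0.02 over all genes.

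Between knockdowns, 1 member was higher and 3 lower with PMCA2 than with HER2 knocked down (25.6% and 28.1% of all genes), and 2 were higher and 3 lower with NHERF1 than with HER2 (25.7% and 24.5%). Against NHERF1, the PMCA2 knockdown had 1 member higher and 4 lower (26.4% and 29.1%). With 8 genes the counts are too small to be told apart from the shares of all genes. They are not a result about the 8 genes as a group. CPS1, OAT, GLUL and SLC25A15 were lower with PMCA2 than with NHERF1 knocked down. Groups did not overlap for 3, 2 and 3 members in the 3 comparisons. How many of all genes lack overlap was not counted, so nothing is read from these numbers. The members' medians were -0.07, 0.08 and -0.24, against -0.01, 0.01 and -0.01 over all genes.

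**Figure D3:**
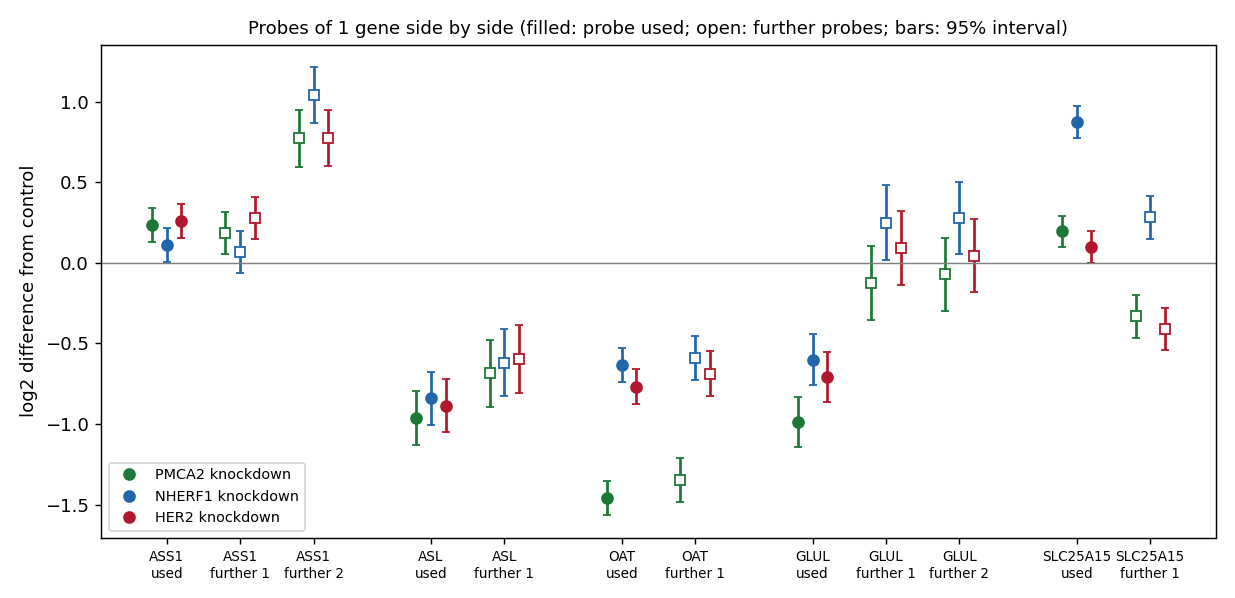
Log2 difference from control for every probe above the floor of the 5 genes with more than 1 such probe, by knockdown, filled for the probe used and open for further probes, with 95% intervals. The ASL and OAT probes share their direction, the dimmest ASS1 probe lies higher than the others, and the further GLUL and SLC25A15 probes differ from the probe used.

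The remaining genes of the cycle were mostly silent. Of 11 others listed, 7 were not above the floor on the 6 arrays needed: NAGS, which makes the activator of CPS1, OTC, ARG1, SLC25A2, SLC7A3, AGMAT and CPS1-IT1. OTC read 92.028 to 102.3 and NAGS 92.184 to 105.79 over the 24 arrays, so neither was above the floor on any array. Of the 4 tested, 2 rose and 2 fell in each knockdown. SLC7A2, a transporter of arginine, lysine and ornithine, rose 15.4-fold with PMCA2, 11.5-fold with NHERF1 and 21.8-fold with HER2 knocked down (log2 3.94, 3.53 and 4.45, SE 0.06, limma adjusted p = 6.08e-28, 7.39e-27 and 5.11e-29). It read 116.73 to 125.65 in control, 655.02 to 714.01 with PMCA2, 492.15 to 560.21 with NHERF1 and 878.61 to 1020.6 with HER2 knocked down, with no overlap between any 2 groups. SLC7A1, the other arginine transporter tested, fell by 0.24, 0.38 and 0.76 on the log2 scale (limma adjusted p = 5.68e-05, 6.15e-08 and 8.05e-14). SIRT5, a mitochondrial deacylase known in mouse to act on CPS1, rose 2.18-fold with NHERF1 knocked down (log2 1.12, limma adjusted p = 2.28e-16) and by log2 0.92 and 0.86 with PMCA2 and HER2, but 3 further probes gave 0.27, 0.63 and 0.29 for NHERF1, 0.14, 0.42 and 0.38 for PMCA2 (the first not called) and 0.04, 0.41 and -0.05 for HER2 (only the middle one called). SLC25A12, the aspartate carrier related to SLC25A13, fell by 0.79, 0.87 and 0.26 (limma adjusted p = 1.95e-10, 3.2e-11 and 0.00302). SLC7A1 and SLC25A12 lie outside the naming rule and were chosen after their values were seen. The lists were chosen with earlier results of these data known. The p-values of listed genes against control, here and below, are therefore no independent evidence. The median of the 4 was 0.34, 0.37 and 0.30.

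Among 22 tested genes of glutamine, glutamate and ammonia metabolism, 11, 10 and 12 rose and 8, 8 and 7 fell in the PMCA2, NHERF1 and HER2 knockdowns, with medians of 0.10, 0.05 and 0.27. Of all 12468 genes, 33.3%, 35.0% and 34.8% were called higher and 32.5%, 30.3% and 31.2% lower. The same shares apply to the list counts below, and some genes, GOT1, GOT2 and CAD among them, stand on several lists. SLC1A5, the main importer of glutamine in many tumour cells, fell 5.92-, 4.40- and 7.94-fold (log2 -2.56, -2.14 and -2.99, SE 0.06, limma adjusted p = 6.49e-24, 3.76e-22 and 1.98e-25). It read 852.26 to 946.53 in control, 208.77 to 244.46 with PMCA2, 256.07 to 283.39 with NHERF1 and 180.39 to 191.41 with HER2 knocked down, so no 2 groups overlapped. SLC1A3, a glutamate and aspartate transporter, rose 5.27-, 15.7- and 9.99-fold (log2 2.40, 3.97 and 3.32, SE 0.05, limma adjusted p = 1.2e-23, 1.65e-28 and 7.78e-27). Its arrays read 231.4 to 265.13 in control, 909.5 to 1064.5 with PMCA2, 2468.7 to 2894.2 with NHERF1 and 1715.2 to 1775.4 with HER2 knocked down, again without overlap. ASNS, which makes asparagine from glutamine and aspartate, rose 2.39-fold with HER2 knocked down (limma adjusted p = 2.71e-18), and SLC3A2, the heavy chain of amino acid transporters, fell 2.22-fold with NHERF1 knocked down (limma adjusted p = 2.39e-18). GLUD1, which releases ammonia from glutamate, fell by 0.21 on the log2 scale with PMCA2 knocked down (limma adjusted p = 0.000683) and rose by 0.45 and 0.56 with NHERF1 and HER2 (limma adjusted p = 6.41e-09 and 9.95e-11). GLUD1 lies outside the naming rule and was chosen after its values were seen.

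Genes that share ornithine, arginine or aspartate with the cycle moved in both directions. Of 16 proline, ornithine and polyamine genes, 3, 6 and 7 rose and 7, 6 and 6 fell, with medians of -0.05, 0.02 and 0.00. PRODH, which starts proline breakdown, fell 8.26-fold with PMCA2 (limma adjusted p = 3.35e-25), 14.4-fold with NHERF1 (1 of 6 arrays above the floor, limma adjusted p = 1.94e-27) and at least 13.1-fold with HER2 knocked down (limma adjusted p = 1.02e-27). It read 383.09 to 448.29 in control and no more than 125.39 on any knockdown array. SAT1, which acetylates polyamines, fell 3.85-fold with HER2 knocked down (limma adjusted p = 5.36e-23). Of 11 genes of nitric oxide and creatine, which are made from arginine, 4, 4 and 3 rose and 7, 6 and 5 fell, with medians of -0.18, -0.61 and 0.04. NOS3, a nitric oxide synthase, fell 3.57-fold, at least 8.32-fold and 7.88-fold (limma adjusted p = 2.94e-18, 3.38e-24 and 5.39e-23), the last with 5 of 6 arrays above the floor. CKB, a creatine kinase, fell 5.07- and 2.59-fold with PMCA2 and NHERF1 knocked down (limma adjusted p = 1.44e-25 and 2.42e-20). GAMT, which makes creatine, rose 2.36- and 3.15-fold with PMCA2 and HER2 (limma adjusted p = 4.29e-15 and 7.18e-18). The near-identical CKMT1A and CKMT1B, which probes may not separate, fell 2.70- and 2.81-fold with NHERF1 and 2.88- and 2.61-fold with HER2 knocked down (limma adjusted p = 1.35e-17, 1.15e-18, 3.27e-18 and 6.32e-18). The creatine carrier SLC6A8 fell 2.23-fold with PMCA2 knocked down, with 2 of 6 arrays above the floor (limma adjusted p = 4.28e-10).

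Of 10 genes of the malate-aspartate shuttle and of fumarate use, 8, 9 and 6 fell and 0, 1 and 1 rose, with medians of -0.60, -0.39 and -0.23, where 32.5%, 30.3% and 31.2% of all genes were lower. The 1 gene that rose with HER2 knocked down was ADSL, named after its values were seen, and its call was lost with no filter, with cyclic loess, on chip 1 alone and without control replicates 1, 3, 5 or 6 or HER2 replicates 2, 3, 4, 5 or 6. SLC25A1, the citrate carrier, fell 2.14- and 2.08-fold with PMCA2 and NHERF1 knocked down (limma adjusted p = 9.98e-15 and 2.59e-14). ADSS1, which uses aspartate in adenylate synthesis, fell at least 2.15-fold with NHERF1 knocked down (limma adjusted p = 1.7e-14), and a further probe gave log2 -0.42. All 7 pyrimidine genes were tested, of which 4, 3 and 4 rose and 2, 1 and 1 fell, with medians of 0.20, 0.25 and 0.26. CAD, the enzyme that makes carbamoyl phosphate from glutamine in the cytosol, was among those that rose, by log2 0.31, 0.59 and 0.65 (limma adjusted p = 0.000269, 2.86e-08 and 4.03e-09), and was named after its values were seen. CTPS2, a CTP synthase, fell at least 1.89-fold with PMCA2 and with NHERF1 (limma adjusted p = 2.14e-16 and 1.24e-15) and 2.06-fold with HER2 knocked down, with 1 of 6 arrays above the floor (limma adjusted p = 2.75e-14).

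**Figure D4:**
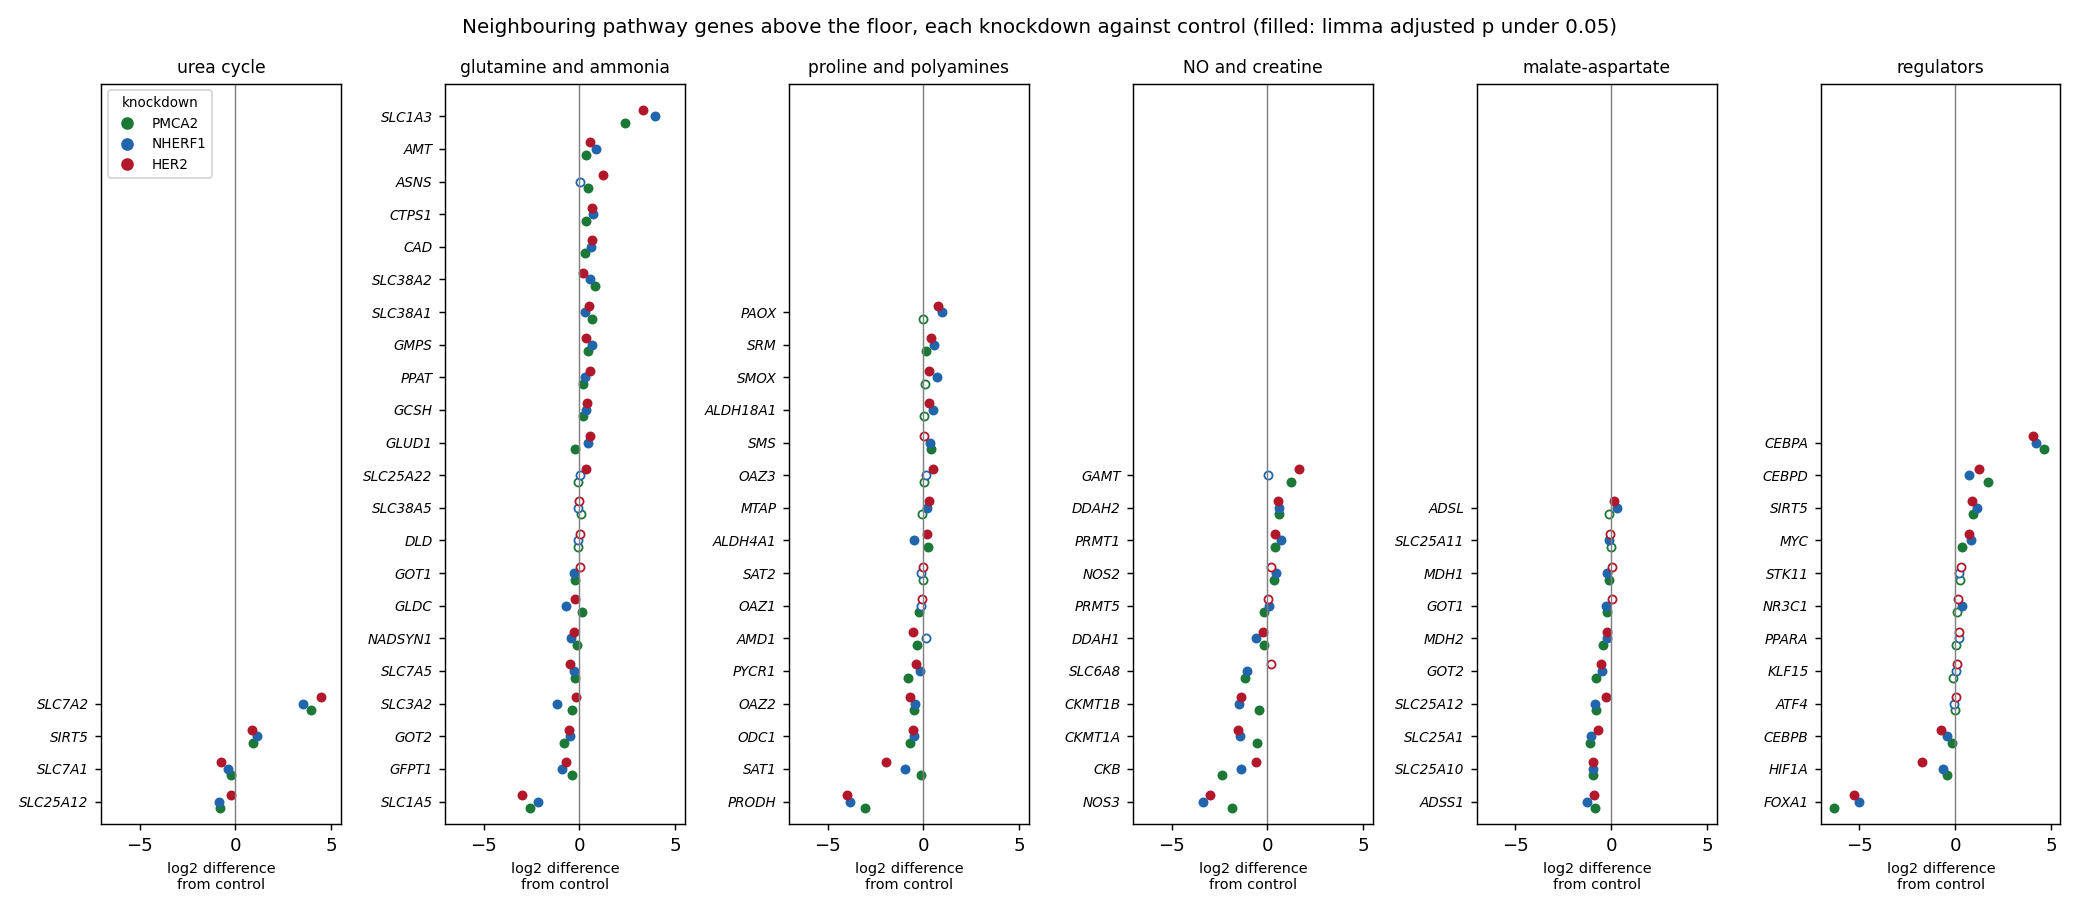
Log2 difference from control (x axis) of the tested genes of 6 neighbouring lists, 1 panel each, with 1 row per gene and 1 colour per knockdown, filled where the limma adjusted p was under 0.05. SLC7A2, SLC1A3 and CEBPA lie far to the right and FOXA1, PRODH, SLC1A5 and NOS3 far to the left, and most other genes lie closer to 0.

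Of 12 tested factors known to act on urea cycle genes, 4, 5 and 4 rose and 3 fell in each knockdown, with medians of 0.07, 0.21 and 0.18. CEBPA, a factor known in mouse liver to drive urea cycle genes, rose 24.7-, 18.4- and 16.7-fold (log2 4.63, 4.20 and 4.06, SE 0.06, limma adjusted p = 1.73e-29, 1.26e-28 and 2.92e-28). It read 131.33 to 146.83 in control, 1438.6 to 1636.4 with PMCA2, 1154.1 to 1236.5 with NHERF1 and 1039.4 to 1139.6 with HER2 knocked down. CEBPA thus stood on the opposite side of control from CPS1. FOXA1, a forkhead factor of luminal breast and liver cells, fell 80.3-, 33.0- and 38.8-fold (log2 -6.33, -5.05 and -5.28, SE 0.06, limma adjusted p = 2.73e-31, 3.95e-29 and 1.68e-29). FOXA1 read 2498.6 to 2909.6 in control, 110.63 to 116.72 with PMCA2, 154.45 to 166.24 with NHERF1 and 141.07 to 158.92 with HER2 knocked down, so it was lowest in the same group as CPS1 but ordered differently in the other 2. CEBPD, a related C/EBP factor, rose 3.23- and 2.34-fold with PMCA2 and HER2 (limma adjusted p = 1.15e-21 and 1.66e-18), and HIF1A, the hypoxia factor, fell 3.28-fold with HER2 knocked down (limma adjusted p = 5.24e-16), with log2 -0.91 and -1.39 on further probes against -1.71 on the probe used. FOXA2, FOXA3 and SIRT3 were too dim to test. Whether any of these factors acts on CPS1 in SKBR3 cells was not tested.

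The genes whose pattern was most like that of CPS1 were found by the root mean square distance of log2 values over the 24 arrays, each gene centred on its own mean. They were PITX1 (distance 0.35), SPDEF (0.37), ORM1 (0.38), MLPH (0.39) and BCAS1 (0.42), and their pattern is a description, since it was matched to CPS1. SPDEF and MLPH also stand on the luminal list. PITX1 was at least 56.7-fold lower than control with PMCA2 and with HER2 knocked down and 60.6-fold lower with NHERF1, where 2 of 6 arrays were above the floor. SPDEF was at least 45.5-fold lower in all 3 knockdowns. The bounds for ORM1 and BCAS1 were 55.5- and 65.8-fold in each knockdown, and MLPH was 90.3-, 83.9- and 79.2-fold lower, with 1, 2 and 5 of 6 arrays above the floor. Unlike these 5 genes, which lay at or below the floor on some or all arrays of a knockdown, CPS1 stayed above it on all 24 arrays. On the centred scale CPS1 stood at -1.92 with PMCA2, -1.55 with NHERF1 and -0.96 with HER2 knocked down, and in the HER2 knockdown the 5 genes stood between -1.47 and -1.60.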

How the data were processed

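Transcripts of SKBR3 cells were read on 24 arrays, grouped by the source names in the labels. The deposited values are probe intensities on a linear scale that the authors had already normalized by a method not given in the sources used here. Sorted intensities differ between arrays by at most 0.406% at any rank and the smallest is 81.6, so background had not been subtracted. The deposited non-normalized table was left out, because its 24 signal columns match no label. Of 47323 probes, 30113 have 1 gene symbol in the platform annotation, 8 have several and 17202 have none, and 30074 matched the RefSeq gene table by identifier. With no detection values usable, 433 probes of protein-coding olfactory receptor genes served as negative controls for normexp (offset 16). Quantile normalization and log2 came next. Probes were kept where the deposited intensity exceeded 105.98, their 95th percentile, on at least 6 arrays (22585 probes). Group means were fitted with limma 3.58.1 in R 4.3.3 over the kept probes of all arrays, which share 1 estimate of the spread per probe, with Benjamini-Hochberg adjustment over all kept probes and calls at an adjusted p under 0.05. Each gene was counted through its kept probe with the highest mean, which gave 12468 genes, and the procedure was tested on simulated data. The 8 genes, the gene lists and the markers were chosen with earlier results of these data known, so p-values of listed genes against control are a description. Named were all 8 genes with each probe, the targets and the 5 genes nearest to CPS1. From each pathway list, the 4 genes with the largest log2 difference per knockdown were named, among those called with at least 2-fold. Named beyond this rule, after their values were seen, were SLC7A1, SLC25A12, GLUD1, CAD and ADSL, and SIRT5 in each knockdown. Some listed genes are not reported here. The alternatives were no filter, no background correction, an offset of 50, cyclic loess, 1 probe per gene, the chip or the replicate number as a block, each chip alone, and leaving out each array.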

Additional observations from a re-analysis of the deposited data

Results flagged for a closer look

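Over the 8 genes and 4 groups, 32 sets of 6 arrays were examined for an array far from the others, and 2 held one, where chance alone flags about 1 in 20. ARG2 read 99.631 on control replicate 1, the lowest of the group, with the next control array at 105.78. The gap was 0.677 of the group's range on the log2 scale after background correction. The array with the gap lies below the floor of 105.98, as do some other ARG2 values. GLUL read 163.48 on PMCA2 knockdown replicate 2, with the next array at 174.09, a gap of 0.767 of the range on that log2 scale. Without that array the GLUL difference between the PMCA2 knockdown and control kept its sign.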

How the results depend on the processing

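The 8 genes' log2 differences were recomputed under 9 alternatives and with each of 24 arrays left out. Of 1584 values, 1536 kept their side of the threshold, with none reversed among those called. Some differences that were not called changed sign. For ASL, PMCA2 minus HER2 was log2 -0.21 on chip 1 alone and 0.06 on chip 2 alone. The CPS1 differences between knockdowns stayed past the threshold under all of these settings, except PMCA2 minus NHERF1 on chip 2 alone (log2 -0.245). For this pair CPS1 passed on chip 1 alone (log2 -0.489, limma adjusted p = 0.00249), where as few arrays were fitted. Its difference from control ranged from log2 -6.45 to -4.72 with PMCA2, -6.03 to -4.59 with NHERF1 and -5.47 to -4.35 with HER2 knocked down, the smallest without background correction. Counts of probes called all stayed within 1.5 times (192 of 192), as did 1372 of 1386 counts over the lists. Of the counts over the 8 genes, 366 of 396 did so. Higher with PMCA2 than NHERF1, 1 as reported, were 2 without background correction, with an offset of 50, with cyclic loess, with 1 probe per gene, and with chip as a block, 0 on chip 2 alone, and 1 to 2 with an array left out. Higher with NHERF1 than HER2, 2 as reported, were 1 with cyclic loess and on chip 1 alone, and 1 to 3 with an array left out, and lower were 3 as reported and 1 on either chip alone. Higher with PMCA2 than HER2, 1 as reported, were 2 with cyclic loess and 1 to 2 with an array left out. Higher than control were 1 in place of 2 for NHERF1 with cyclic loess and on chip 1 alone, and 2 in place of 4 for PMCA2 on chip 2 alone. The cause of these moves was not tested. Same-numbered arrays of different groups hardly deviated together (median r 0.0167 over 36 pairs, 1 of them over 0.1, against -0.00544 for unlike numbers). Pairing by number was thus not seen, but such correlations cannot exclude it. With the replicate block, members higher with PMCA2 than NHERF1 were 2 in place of 1 (SLC25A13 joined, limma adjusted p = 0.0431), and no other such count moved by over 1.5 times. ARG2, the dim ASL and GLUL probes and the CPS1 gaps between knockdowns lie close to background, which limits their precision.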
